A study of Mus musculus with 3 samples.

Results

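Tight chains of L1 ChIRP peaks are runs of 4 or more neighbouring peaks on chromosomes 1 to 19 in which no gap between the end of a peak and the start of the next exceeds 10000 bp. There were 348 such chains, and they held 1628 of the 21985 peaks on the 19 autosomes and of the 24666 peaks in the whole list. This was 7.41% of the autosomal peaks (95% exact binomial interval 7.06 to 7.76, counting error only). The interval treats peaks as independent, but members come in runs of 4 or more, so it is too narrow. The members were chosen by the measured starts and ends of the peaks, so the existence, size and tightness of the chains are described here and not tested. The other 20357 autosomal peaks, in runs of 1 to 3, served for comparison.

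E14, the source of the chromatin, is a line of mouse embryonic stem cells, here grown in serum medium with leukaemia inhibitory factor. ChIRP (chromatin isolation by RNA purification) fishes an RNA out of crosslinked cells with biotinylated DNA probes, here 59 nt long, together with the chromatin attached to it, which had been sheared to 2 to 5 kb. The series holds 3 libraries, of L1 RNA, of Malat1 RNA and of input DNA, with 1 replicate each, and the peak list of the L1 library was analysed. The other 2 libraries were not analysed here, read depth is unknown, and no difference can be set against the spread between replicates. The labels list genomic DNA as the molecule, while the protocol text describes reverse transcription of recovered RNA, so a peak is a stretch of mm9 called from this library and need not be a contact site of L1 RNA.

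L1, short for long interspersed element 1, names self-copying retrotransposons whose copies fill a large part of the mouse genome. A complete element carries its own promoter and encodes an RNA-binding protein and a protein with endonuclease and reverse transcriptase activity. Copying usually stops early, so most genomic copies lack their 5′ part. L1 copies are common in gene-poor, AT-rich sequence, where several can lie side by side or inside one another, and L1 RNA is abundant in the nucleus of embryonic stem cells. Which repeats or genes lie under the chains was not analysed here, because no annotation or sequence of mm9 was used, and no sequence is printed for the same reason.

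Most chains were short. Of the 348 chains, 221 had 4 peaks and 71 had 5, which together made up 83.9%. Chains of 6, 7, 8 and 9 peaks numbered 27, 14, 10 and 3, and 1 chain each had 10 and 12 peaks. Chain length, from the first start to the last end, had a median of 41.6 kb, quartiles of 30.2 and 53.2 kb, and a range from 10.96 to 147 kb. Chains longer than 50 kb numbered 106, and 7 were longer than 100 kb. Median length was 37.0 kb in chains of 4 peaks, 47.3 kb in chains of 5 and 57.0 kb in chains of 6, with overlapping ranges. A chain of 4 peaks could reach 80.2 kb, and one of 6 peaks could be as short as 30.6 kb, so the number of peaks set only a loose bound on the length.

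**Figure D1:**
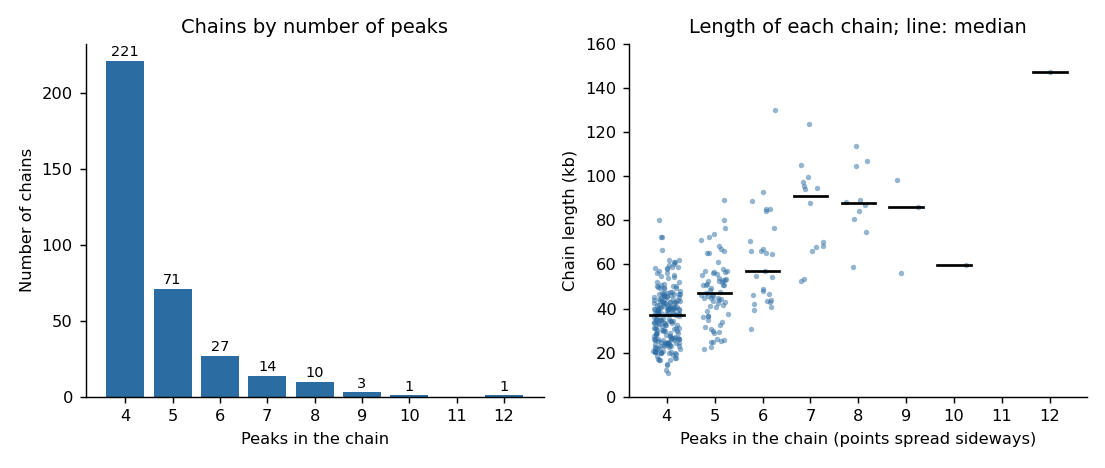
Left, number of chains (vertical axis) by number of peaks in the chain. Right, length in kb of each of the 348 chains (points, spread sideways at random) by number of peaks, with the median as a black line. The bars fall from 221 chains of 4 peaks to 1 chain of 12, and the lengths of chains of 4, 5 and 6 peaks overlap.

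Peaks took up most of the length of the chains. They covered a median of 72.4% of a chain's length (quartiles 64.4 and 81.2, range 44.7 to 99.8, 348 chains). Pooled over chains, 11.4 Mb of peak lay in 15.7 Mb of chain, or 73.0%, where peaks covered 6.01% of the autosomal span of 2408 Mb. The chains took up 0.650% of that span and held 7.89% of all autosomal peak bases. Some of this coverage is fixed by the 10 kb limit on gaps, since single peaks were themselves several kb wide. High coverage was not particular to chains: pooled coverage was 78.8% in runs of 2 peaks and 74.8% in runs of 3. In 38 chains coverage reached 90% or more, and in 7 it was below 50%. The most completely covered chain lay on chromosome 15 from 57242722 to 57266278, where 4 peaks were parted by gaps of 6 to 19 bp and covered 99.8% of 23.6 kb. The least covered chain, on chromosome 14 from 86473301 to 86495885, also had 4 peaks, 1009 to 5640 bp wide, over 22.6 kb. The shortest chain of all lay on chromosome 16 from 40715763 to 40726725, with 4 peaks of 1980 to 3283 bp and no gap above 115 bp.

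Chain gaps were most crowded at very short sizes and otherwise widely spread up to the limit. The 1280 gaps inside chains had a median of 2453 bp and quartiles of 218 and 5874 bp. Gaps under 50 bp were the most crowded class, with 129 of 1280 (10.1%), and 308 (24.1%, 95% binomial interval 21.7 to 26.5) were under 200 bp. Counted per 100 bp of gap size, there were 258 gaps below 50 bp, 14.6 between 500 and 1000 bp, and 6.79 to 11.9 in each class of 1000 bp above that. Above 1 kb the gaps thinned slowly, from 11.9 per 100 bp between 1 and 2 kb to 6.79 between 9 and 10 kb. Very short gaps had a similar share in smaller runs: in runs of 2 or 3 peaks, 26.5% of 3949 joined gaps were under 200 bp (25.1 to 27.9). The smallest gap was 2 bp, which parts intervals that all but touch, and neither how the caller set the borders of peaks nor whether the list was changed after calling is stated. With peaks under 200 bp apart merged, 206 chains were found in place of 348. Measured from midpoint to midpoint, neighbours inside chains lay a median of 9928 bp apart.

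**Figure D2:**
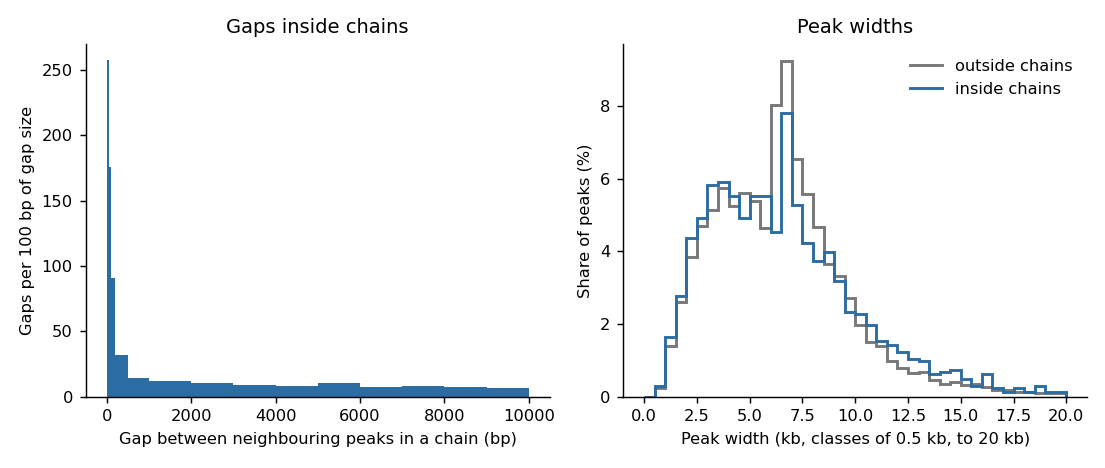
Left, the 1280 gaps inside chains as the number of gaps per 100 bp of gap size (vertical axis) against gap size in bp. Right, the share of peaks in percent per 0.5 kb class of width, up to 20 kb, for the 1628 peaks inside chains (blue) and the 20357 outside (grey). Gaps pile up below 200 bp and fall slowly from 11.9 per 100 bp at 1 to 2 kb to 6.79 at 9 to 10 kb, and the inside curve is lower from 6 to 7.5 kb, where it holds 17.6% against 23.8%.

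If peaks less than 200 bp apart are read as single blocks, the 1628 peaks form 1320 blocks, of which 257 join 2 or more peaks and 1063 are single peaks. By this reading 131 chains contained no such short gap and 206 still had 4 or more blocks. With blocks joined below 1 kb, 15 chains were a single block each, 74 had no joined peaks, and 136 chains still had 4 or more blocks. The longest block of the latter kind lay on chromosome 16 from 19064167 to 19147735, where 6 peaks ran over 83.6 kb with no gap of 1 kb or more. Among blocks with gaps under 200 bp the longest had 4 peaks and lay on chromosome 2 from 83367550 to 83421410, over 53.9 kb. The count of 348 chains therefore describes the list as called: it was 136 once peaks under 1 kb apart were merged, and 143 with gaps of up to 5 kb.

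The longest chain, both by peaks and by length, lay on chromosome 18 from 90425308 to 90572613 (mm9). Its 12 peaks spanned 147 kb and covered 79.9% of it. In order, the peaks were 5692, 22821, 8549, 12443, 2195, 6976, 6749, 8985, 13098, 7478, 11507 and 11265 bp wide. The first 9 peaks were parted by gaps of 855 to 6817 bp, and the last 4 peaks by gaps of 39, 2 and 3 bp, so that the far end of the chain was a nearly unbroken block. Only 1 of the 12 peaks was narrower than 5 kb and 5 were wider than 10 kb. The chain did not stand alone. Within 492.6 kb of chromosome 18, from 90079977 to 90572613, lay 4 chains with 27 of the 36 peaks found there, in chains of 5, 6, 4 and 12 peaks. The chain of 12 stood out among them in peak width: its median was 8767 bp, against 3334, 4778 and 3455 bp in the other 3. These neighbours had no peak above 10 kb.

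Chains with nearly as many peaks were built in different ways. The chain of 10 peaks on chromosome 14 from 51201149 to 51260800 was only 59.7 kb long, because its peaks were narrow, with a median of 3506 bp and 1 peak above 10 kb. Of its 9 gaps, 7 were under 1 kb and the largest was 9622 bp, close to the limit, so a slightly stricter limit would split it into 6 and 4 peaks. The chain of 9 on chromosome 7 from 5453258 to 5551664 was 98.4 kb long with 87.5% covered, and 5 of its 8 gaps were under 200 bp. Its peaks ranged from 2228 to 21069 bp. Another chain of 9, on chromosome 1 from 46593058 to 46649163, was 56.1 kb long and had no peak above 10 kb. The third chain of 9, on chromosome 14 from 125091732 to 125178005, covered 83.3% of 86.3 kb and ended with the last peak of that chromosome in the list. Peak number alone thus grouped regions of narrow and of wide peaks together.

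Of the 10 chains with 8 peaks, the 5 longest lay on chromosomes 4, 16, 3, 2 and 19. That on chromosome 4 from 115286420 to 115400330 held the widest peak inside any chain, 41011 bp, between neighbours of 4490 and 5243 bp. On chromosome 16 from 19041027 to 19147735, peaks covered 92.5% of 107 kb, and 5 of 8 peaks were wider than 10 kb. A further chain of 8 peaks followed on the same chromosome from 19333275 to 19420438. The chain on chromosome 3 from 22324378 to 22428839 covered 73.2% of 104 kb, with peaks from 2502 to 20321 bp. Those on chromosome 2 from 95053302 to 95142338 and on chromosome 19 from 33758961 to 33847228 were more open, with coverage of 68.3% and 70.0%. The chromosome 16 chain was thus a nearly closed block of wide peaks, and the last 2 were looser strings of peaks mostly below 10 kb.

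The 5 next longest chains had 6 or 7 peaks each, and in 2 of them the peaks were mostly wider than 10 kb. The second longest chain, on chromosome 6 from 41997483 to 42127609, had 6 peaks over 130 kb, all wider than 10 kb (10281 to 27456 bp), and its median width of 16374 bp was the highest of any chain. On chromosome 9 from 36361270 to 36485186, 7 peaks with a median of 16148 bp spanned 124 kb, 5 of them wider than 10 kb, and the next peak after the chain was 1204029 bp away. The other 3 had lower median widths, 7088 to 8741 bp. That on chromosome 9 from 9458205 to 9563246 had 7 peaks, 1 of them above 10 kb, no gap under 1 kb, and coverage of 66.0% over 105 kb. The last 2 lay on chromosome 3, from 90691447 to 90791155 and from 3399075 to 3496262, with 7 peaks each over 99.7 and 97.2 kb. The former was followed after 10168 bp by another chain, of 4 peaks over 25.9 kb, so that a limit only slightly wider would have made 1 chain of 11.

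**Figure D3:**
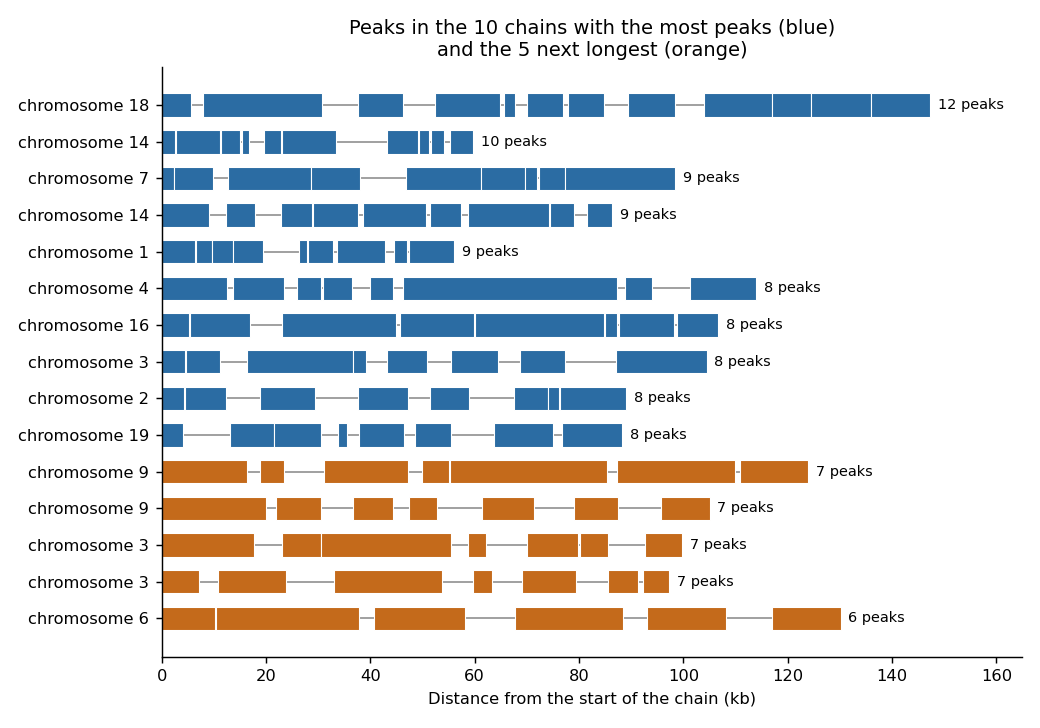
Peaks (boxes) along the 10 chains with the most peaks (blue) and the 5 next longest (orange), by distance in kb from the start of each chain, with gaps as grey lines and peak borders in white, which are drawn wider than the shortest gaps. The chromosome 18 chain ends in 4 nearly touching peaks, and the chromosome 6 chain reaches 130 kb with 6 peaks.

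The median width of peaks inside chains was close to that of peaks outside, but the spread was larger. Inside chains the median was 6322 bp (order-statistic 95% interval 6050 to 6552), and outside it was 6372 bp (6342 to 6406). The inside median was higher on 10 of the 19 autosomes and lower on 9. The inside minus the outside median ranged from -1270 bp on chromosome 15 to 1015 bp on chromosome 19. At the narrow end the 25th percentile was 3915 bp inside and 4128 bp outside. At the wide end the 75th percentile was 8771 bp inside and 8115 bp outside, and the 95th was 15155 and 12527 bp. The sign of the small difference in medians depended on the settings. It was -769 bp with gaps of up to 5 kb and 698 bp after peaks under 1 kb apart were merged.

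The width class around 6 to 7.5 kb, which is the mode of the whole list, was thinner inside chains. It held 287 of 1628 peaks inside (17.6%, 95% binomial interval 15.8 to 19.6) and 4848 of 20357 outside (23.8%, 23.2 to 24.4). The inside share was lower on 16 of 19 autosomes. Within the class, the inside and outside shares differed most from 6 to 6.5 kb, at 4.55% and 8.03%, and less from 6.5 to 7 kb, at 7.80% and 9.24%. Peaks with no neighbour within 10 kb had the highest share, 26.4% (25.7 to 27.2), and the step down was already present in runs of 2 peaks, at 19.2%, and of 3 peaks, at 18.7%. Chains of 4 and of 5 peaks had 18.6% and 19.2%, and chains of 6 or more had 14.1% (10.8 to 18.0, 389 peaks). A lower share was thus seen in runs of every size from 2 peaks up. Of the 348 chains, 142 had no peak of this class, 144 had 1 and 62 had more.

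Wide peaks went the other way. Peaks above 10 kb made up 17.6% of those inside chains (287 of 1628, 15.8 to 19.6) and 11.7% of those outside (2381 of 20357, 11.3 to 12.1). The inside share was higher on 16 of 19 autosomes. It was 11.2% for peaks without a neighbour, 14.4% in runs of 3, 14.5% in chains of 4, 17.5% in chains of 5 and 24.9% (20.7 to 29.5) in the 56 chains of 6 or more peaks. Above 15 kb the shares were 5.16% inside and 2.47% outside, and 8.997% in chains of 6 or more. Of the chains, 167 had no peak above 10 kb, 111 had 1 and 70 had 2 or more. Whether wide peaks gathered in some chains more than their share implies was not tested. Narrow peaks, under 2 kb, made up 4.73% inside (3.75 to 5.88) and 4.26% outside (3.99 to 4.55), intervals that overlap. Peak width enters both ways of chaining by construction: a wider peak leaves less gap between edges and sets midpoints farther apart. How far either rule shaped the shares was not tested. When peaks were chained by the distance between midpoints, for which a single limit was tried, the share above 10 kb was 10.7% inside and 12.2% outside. The direction of the difference thus depended on which distance was chained.

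Peaks at the ends of chains differed from those within. The 696 first and last peaks had a median width of 6617 bp (6360 to 6841), and the 932 inner peaks had one of 5957 bp (5654 to 6320). The class of 6 to 7.5 kb held 21.0% of end peaks and 15.1% of inner peaks, so end peaks lay nearer to those outside chains. The shares above 10 kb were 18.0% and 17.4%. An end peak has a short gap on 1 side only and an inner peak on both, which the rule fixes. The widths of neighbours in a chain were weakly alike, with a Spearman correlation of 0.18 over 1280 pairs, which share a library and overlap in their members. Over 3949 pairs in runs of 2 or 3 it was 0.22, and over 7731 pairs 10 to 50 kb apart it was 0.13. Single chains differed in this: that of chromosome 4 with the 41011 bp peak also held one of 4490 bp. All 6 peaks of the 130 kb chain on chromosome 6 were wider than 10 kb.

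Chains lay on all 19 autosomes, at 14.5 per 100 Mb of span from the first to the last peak. Chromosome 3 had the most by number and by density, with 40 chains or 25.6 per 100 Mb (95% Poisson interval 18.3 to 34.8, counting error only). Chromosome 12 followed with 24 chains (20.3 per 100 Mb, 13.01 to 30.2), then chromosome 4 with 29 (19.4, 13.02 to 27.9) and chromosome 7 with 28 (18.9, 12.6 to 27.4). These 4 intervals overlap. Chromosome 8 had the lowest density, with 9 chains or 7.00 per 100 Mb (3.20 to 13.3). Chromosome 11 came next, with 11 chains (9.26, 4.62 to 16.6), and the fewest chains by number, 8, lay on chromosome 19. The densities of chromosomes 3 and 8 differed 3.66-fold (1.75 to 8.57), a pair chosen because they were the extremes. The order is only partly one of peak density: over the 19 autosomes, chains per 100 Mb had a Spearman correlation of 0.61 with peaks per Mb, as a description.

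Set against the number of peaks, the chromosomes were closer together. Chains per 1000 peaks ranged from 8.19 on chromosome 8 to 22.0 on chromosome 12. Chromosome 11, sparse in peaks, had 17.8 chains per 1000 peaks (8.89 to 31.8), against 20.4 (14.6 to 27.7) on chromosome 3. The share of a chromosome's peaks that lay in chains was highest on chromosome 19, at 11.02% (8.03 to 14.7), on 18, at 10.1% (8.10 to 12.5), and on 7, at 9.91% (8.40 to 11.6). It was lowest on chromosome 8, at 4.004% (2.92 to 5.34). Across the 19 autosomes this share had a Spearman correlation of 0.11 with peaks per Mb. The share was thus hardly ordered by peak density.

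Chromosome X, which the rule leaves out, had few chains for its many peaks. Although it held 2177 peaks at 13.3 per Mb, it had 17 chains and 78 peaks in them, 3.58% of its peaks (2.84 to 4.45). Per peak this was 0.49 times the autosomal number of chains (0.28 to 0.80). Per Mb of span it was 0.72 times that number (0.41 to 1.17), which is not separated from 1. The number of copies of X relative to the autosomes was not taken into account in any comparison here. No chain on X had more than 6 peaks. Such chains were rare on the autosomes too: 14, 10, 3, 1 and 1 of 348 had 7, 8, 9, 10 and 12 peaks. Their absence among 17 chains therefore says little. The shortfall began at 4 peaks: runs of 3 were no rarer on X, with 38.6 per 1000 peaks, than on the autosomes, with 31.4, and counted from 3 peaks upward the ratio was 0.98 (0.79 to 1.21). Chains of 4 numbered 4.59 per 1000 peaks on X and 10.1 on the autosomes. Inside the chains of X, 11.5% of peaks were 6 to 7.5 kb wide (5.41 to 20.8, 78 peaks), against 28.01% (26.1 to 30.0) of the other X peaks, a gap in the same direction as on the autosomes. The excess of peaks above 10 kb was not seen on X, where they made up 6.41% inside chains (2.11 to 14.3, 5 of 78 peaks) and 6.34% outside (5.33 to 7.46).

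**Figure D4:**
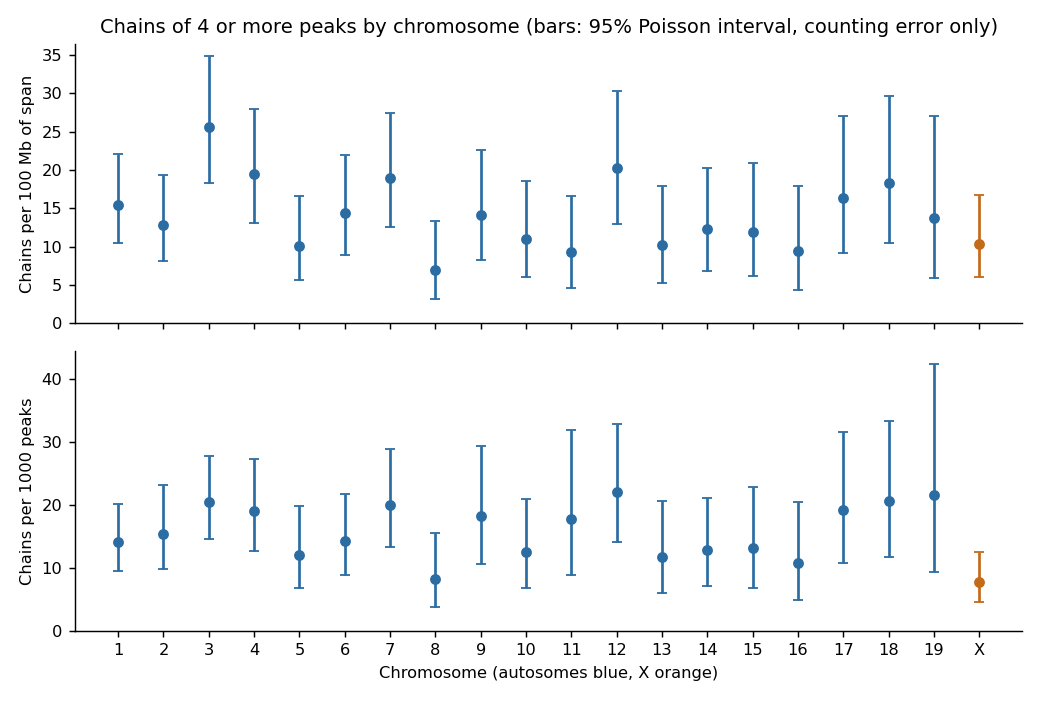
Chains of 4 or more peaks on chromosomes 1 to 19 (blue) and X (orange), per 100 Mb of span from first to last peak (top) and per 1000 peaks (bottom), with 95% Poisson intervals. Chromosome 3 is highest per 100 Mb at 25.6, and X has 7.81 chains per 1000 peaks, below each autosome though its interval overlaps those of 15 of the 19 autosomes.

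Chains, like runs of 3 peaks, sat in regions that were rich in peaks well beyond the runs themselves. Between 20 and 50 kb from the edge of a chain there were 27.1 peaks per Mb, and between 100 and 250 kb there were 19.1, against 9.13 over the autosomal span. The density was 14.7 per Mb at 500 to 1000 kb and 11.6 per Mb at 2000 to 5000 kb. Around peaks without a neighbour within 10 kb the values were lower at each distance, 15.1 per Mb at 20 to 50 kb, 13.99 at 100 to 250 kb, 12.2 at 500 to 1000 kb and 10.5 at 2000 to 5000 kb. Around runs of 3 peaks they were 22.2 per Mb at 20 to 50 kb, 21.3 at 50 to 100 kb, where chains had 22.6, 18.3 at 100 to 250 kb and 14.4 at 500 to 1000 kb. From 50 kb outward, runs of 3 were thus close to chains. Windows around nearby chains overlap and count some peaks more than once, so these densities carry no interval.

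**Figure D5:**
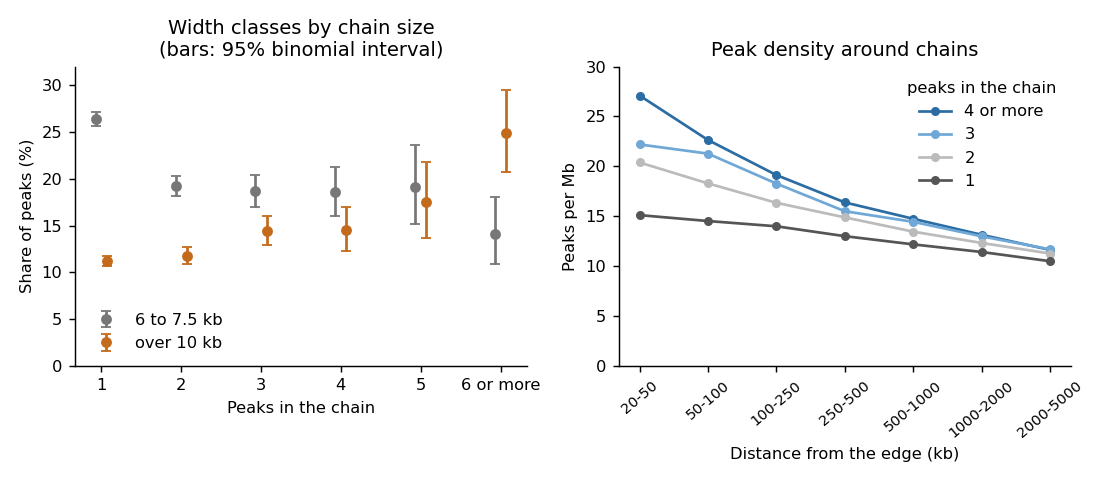
Left, the share of peaks in percent that are 6 to 7.5 kb wide (grey) or wider than 10 kb (orange) by the number of peaks in the run, with 95% binomial intervals. Right, peaks per Mb (vertical axis) in windows at increasing distance in kb from the edge of runs of 1, 2, 3 and 4 or more peaks. Wide peaks rise from 11.2% in runs of 1 to 24.9% in chains of 6 or more, and density around chains falls from 27.1 to 11.6 per Mb.

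By bins of 1 Mb, 205 of the 348 chains (58.9%) had their midpoint in 1 of the 276 autosomal bins with 20 or more peaks. The peaks of these bins were in chains in 14.9% of cases. The share was 27.3% in the 29 bins with 30 or more peaks, 7.76% in bins with 15 to 19 and 1.31% in bins with 5 to 9. The chain peaks themselves count toward a bin, which raises these shares. The 276 bins held 6707 of the 21985 autosomal peaks. Since bins were ranked by the same peaks that form the chains, a preference of chains for peak-rich bins was not tested. In bins with fewer than 15 peaks lay 52 chains. Of the bins that held chains, 236 had 1, 41 had 2, 6 had 3 and 3 had 4. The 3 bins with 4 chains lay on chromosome 18 from 90000001 to 91000000, chromosome 7 from 5000001 to 6000000 and chromosome 12 from 64000001 to 65000000. In them 27 of 38, 22 of 42 and 17 of 31 peaks were in chains.

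Some chains lay near other chains. The nearest other chain was a median of 958 kb away (quartiles 330 and 3368 kb), and 46 of 348 chains (13.2%) had another within 100 kb and 176 (50.6%) within 1 Mb. Chaining the chains at up to 200 kb gave 36 groups with 78 of the 348 chains. Besides that of chromosome 18, groups of 3 chains lay on chromosome 1 from 46361345 to 46787019, with 18 chain peaks among 24, and on chromosome 7 from 5117779 to 5551664, likewise with 18 among 24. Others lay on chromosome 17 from 40487076 to 40846140, with 13 among 20, and on chromosome 3 from 15554076 to 15790160. In the last of these all 12 peaks over 236 kb belonged to chains of 4. The first 10 Mb of the autosomal spans, next to the centromere, held 53 chains (15.2%, 11.6 to 19.4) and 10.97% of the peaks. The last 10 Mb held 20 chains (5.75%, 3.55 to 8.74) and 4.70% of the peaks. Of the peaks in these regions, 10.2% next to the centromere and 10.3% at the far end were in chains, against 7.41% of all autosomal peaks. No interval was computed for these shares. That of the far end rests on 107 chain peaks, of which 27 lay in the 4 neighbouring chains of chromosome 18. The last 10 Mb of chromosome 18 also held chains of 5 and 4 peaks. That of chromosome 14 held chains of 7, 7, 6 and 9 peaks, from 123451965 to 125178005. Much of the far end's share thus came from chromosomes 14 and 18, and whether it holds without them was not tested. The interval of the far end's share of chains, 3.55 to 8.74, included its 4.70% of the peaks.

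Gaps lay close to the limit of the rule on both sides. The largest gaps that were bridged inside chains measured 9968, 9971 and 9985 bp, and the smallest that ended a chain measured 10021, 10033 and 10068 bp. Beyond its ends a chain was followed by the next peak after a median of 33.7 kb (quartiles 19.7 and 68.3 kb, 695 ends), and 180 of these gaps (25.9%) were at most 20 kb. Just outside the rule stood 691 runs of 3 peaks, with a median length of 25.1 kb and a median coverage of 75.6%. Their next peaks lay a median of 41.1 kb away, and the smallest of these gaps were 10009, 10014 and 10015 bp. Runs of 3 and chains of 4 were alike in median width, at 6027 bp (5789 to 6210) and 5965 bp (5657 to 6306).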

How the data were processed

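The list deposited by the authors gives chromosome, start and end per peak in 3 columns, with no score, fold or p-value. The submitters' processing notes name CASAVA, Bowtie2 2.2.2, MACS 1.4.2 and the build mm9, with no role or setting stated. The name of the list carries numbers and the letters FDR, which may stand for thresholds but are not explained. Not given in the sources used here are how thresholds were applied, the control, the handling of multiply mapping reads and the depth. All of these can shape peak edges, and so gaps and widths.

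Starts were taken to count from 0, as in BED, and are printed from 1. Width is end minus start, and a gap is the next start minus the previous end. Autosomal peaks were sorted and chained with gaps of at most 10 kb, and chains of 4 or more were kept. Python 3.11.15, numpy 2.4.6, pandas 2.3.3, scipy 1.17.1 and matplotlib 3.10.9 were used. On simulated data the chaining recovered 8535 of 8535 planted chains. These were planted by the same gap rule, so this checks the code only and says nothing about the chains of the list. Intervals are exact binomial, exact Poisson or order-statistic intervals at 95%. They treat peaks or chains as independent and cover counting error only. Since chain peaks come in runs, the intervals of shares of peaks in chains, also by chromosome, are too narrow. No p-value was computed, since there is 1 library.

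Named chains are the 10 with the most peaks, ties broken by length, and the 5 longest of the rest. Extreme chains and groups of chains were named after their values were seen. The members and lists were chosen with earlier results of these data known. The planned count of genes was not run: the gene table at hand is of another build, GRCm38.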

Additional observations from a re-analysis of the deposited data

How the results depend on the processing

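The number and share of peaks in chains moved with each setting of the rule. The 348 chains and 7.41% of peaks became 143 and 2.87% with gaps of up to 5 kb, 782 and 18.2% with gaps of up to 20 kb, 1039 and 16.8% for runs of 3 or more, and 127 and 3.38% for 5 or more. They became 136 and 3.02% after peaks under 1 kb apart were merged, and 206 and 4.51% after merging under 200 bp, an alternative added after seeing the data. With peaks of at least 2 kb only (303 chains) and with midpoint distances (326), the shares were 6.75% and 6.65%. Median coverage, 72.4%, became 86.8% at 5 kb, 55.1% at 20 kb, 74.4% for runs of 3 or more, 67.9% and 69.5% after merging under 1 kb and 200 bp, and 69.7% with midpoint distances. The difference in median width, -50 bp, became -769 bp at 5 kb, 326 bp for 5 or more, 698 and 603 bp after merging under 1 kb and 200 bp, and -824 bp with midpoint distances. The remaining settings gave -239 to 155 bp. The difference in the 6 to 7.5 kb share, inside minus outside, was -6.19 percentage points. It was -9.55 at 5 kb, -5.25 at 20 kb and -1.44 for the class of 6.5 to 7 kb, the only alternatives run for it. Whether its direction holds with midpoint distances, merging, other chain sizes or peaks of at least 2 kb was not tested.

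Alternatives for the next 2 results were added after seeing the data. The excess of peaks above 10 kb, 5.93 percentage points, was 3.80 at 5 kb, 9.56 for 5 or more, 12.5 and 11.1 after merging under 1 kb and 200 bp, and reversed to -1.50 with midpoint distances, which by construction set wide peaks farther apart. The ratio of chains per peak on X to autosomes, 0.49, was 0.28 at 5 kb and 0.98 for runs of 3 or more, and 0.43 to 0.76 over the other 6 settings. Its interval included 1 for runs of 3 or more (0.79 to 1.21), for 5 or more (0.22 to 1.18) and with midpoint distances (0.40 to 1.01). The densest and sparsest autosomes differed 3.66-fold per 100 Mb and 2.69-fold per 1000 peaks, with chromosome 12 in place of 3 as the highest. No score was available to set a stricter peak threshold, the gene overlap was not run, and read depth, which limits which peaks were called, is unknown. No paired analysis was possible because there is a single library per group.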

Other observations

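The placed part of chromosome Y, with 40 peaks over a span of 2.76 Mb, held 1 chain of 6 peaks, or 15.0% of its peaks (95% binomial interval 5.71 to 29.8). Unplaced sequence held none. Its 464 peaks on 10 named sequences included 385 on unplaced parts of chromosome Y, and none of the 464 was in a chain of 4 or more. An approximate upper limit for counting error, 3 divided by the 464 peaks and not an exact interval, is 0.647%. Unplaced pieces are joined in an arbitrary order, so gaps across piece borders there have no meaning.

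Peaks parted by under 200 bp inside chains were narrower as pairs than those further apart. The 308 pairs with such a gap had a median summed width of 10491 bp, and the 972 pairs with a wider gap had one of 13354 bp. The chain with the narrowest peaks, on chromosome 9 from 89231490 to 89249207, had 4 peaks with a median of 1361 bp that covered 49.3% of 17.7 kb.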
